A study of Mus musculus with 8 samples.

Results

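Plk3, Plk2 and 8 target genes of the transcription factor p53 were followed in 8 mouse livers: Gdf15, Bbc3, Cdkn1a, Mdm2, Ccng1, Zmat3, Trp53inp1 and Bax. These 10 genes were taken by symbol from the 40838 rows of the count table, and all 10 were found and passed the filter on low counts. The list was chosen by the measured group differences of Plk3, Gdf15 and Bbc3 in these same libraries, with further p53 targets added by name. The group differences of the 10 genes are therefore a description and carry no test of their own.

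The livers came from C57BL/6 mice on a NASH diet (a feed that produces fatty liver with inflammation and scarring) for 16 weeks in all, and the same diet was eaten by both groups. After the first 7 weeks the mice received an adeno-associated virus (AAV), and the diet went on for 9 weeks more. In 4 livers the virus carried Lpcat3, which encodes an acyltransferase that places polyunsaturated fatty acids in membrane phospholipids, and in the 4 control livers it carried eGFP. Both were driven by TBG, a promoter active in hepatocytes, so other liver cells were not the target of the vector. The labels give neither age nor sex, nor whether each sample is its own animal, so the spread given is that between these samples and may be technical.

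p53 is activated by DNA damage and other stress and switches on genes that stop the cell cycle, repair DNA or start apoptosis. Cdkn1a encodes the cell cycle inhibitor p21, Mdm2 the ubiquitin ligase that removes p53, and Bbc3 (Puma) and Bax are proteins of the BCL2 family that promote cell death. Plk2 and Plk3 are polo-like kinases, a family named for its role in mitosis, but these members are known for rapid induction by growth factors and stress, and Plk2 is itself a p53 target. In fatty liver, p21 and p53 activity are studied as marks of hepatocyte injury and senescence.

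The promoters show which of the genes carry a p53 motif next to an annotated start site. RefSeq promoter windows of 300 bases (250 before and 50 after a start, assembly GRCm38.p6) were at hand for 8 of the 10 genes, 12 windows in all. Zmat3 and Trp53inp1 had none there. The motifs searched on both strands were the p53 half-site, the p53 full site (a pair of half-sites with a spacer of at most 13 bases), the CArG box, TGACGTCA, TGANTCA, TGATGCAA and TATAAA. A half-site was found in 4 of the 8 genes (Cdkn1a, Mdm2, Ccng1 and Bax), and 9.55% of the 27025 genes with a window hold one. Only Cdkn1a had a full site, which 24 of all 32851 windows hold (0.0731%). It lies before the more upstream of 2 annotated Cdkn1a starts. Its half-sites are the 10-base matches that begin 73 and 51 bases upstream of that start, with a spacer of 12 bases, and each full-site match also counts as half-sites. In the 4 windows below, capitals mark these matches: the full p53 site in Cdkn1a on chr17:29090729-29091028 (plus strand), a p53 half-site in Ccng1 on chr11:40755237-40755536 (minus strand), no match in Plk3 on chr4:117133914-117134213 (minus strand), and the element TGACGTCA in Plk2 on chr13:110394794-110395093 (plus strand).
Cdkn1a: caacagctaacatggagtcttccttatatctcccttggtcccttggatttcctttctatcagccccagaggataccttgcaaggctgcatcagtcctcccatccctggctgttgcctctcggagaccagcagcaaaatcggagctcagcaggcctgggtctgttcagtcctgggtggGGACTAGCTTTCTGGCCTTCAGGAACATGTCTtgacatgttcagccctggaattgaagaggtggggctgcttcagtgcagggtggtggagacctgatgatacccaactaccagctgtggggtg
Ccng1: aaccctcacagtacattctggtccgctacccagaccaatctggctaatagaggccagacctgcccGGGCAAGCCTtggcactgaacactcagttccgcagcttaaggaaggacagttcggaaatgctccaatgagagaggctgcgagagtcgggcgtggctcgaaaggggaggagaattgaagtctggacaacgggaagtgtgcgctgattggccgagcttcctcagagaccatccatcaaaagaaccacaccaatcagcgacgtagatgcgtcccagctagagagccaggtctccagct
Plk3: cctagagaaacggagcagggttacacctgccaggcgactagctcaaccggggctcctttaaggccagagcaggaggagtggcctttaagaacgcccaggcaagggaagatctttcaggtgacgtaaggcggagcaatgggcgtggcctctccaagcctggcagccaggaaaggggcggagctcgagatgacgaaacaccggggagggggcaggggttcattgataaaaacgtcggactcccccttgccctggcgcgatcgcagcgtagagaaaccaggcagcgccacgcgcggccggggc
Plk2: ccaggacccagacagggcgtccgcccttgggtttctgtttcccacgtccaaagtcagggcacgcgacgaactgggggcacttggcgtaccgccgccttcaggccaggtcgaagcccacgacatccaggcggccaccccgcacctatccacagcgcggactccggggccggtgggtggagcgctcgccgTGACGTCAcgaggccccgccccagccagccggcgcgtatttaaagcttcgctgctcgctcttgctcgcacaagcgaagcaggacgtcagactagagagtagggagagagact
The Mdm2 half-site was GAACTTGCCT, 186 bases upstream of the start, and the Bax half-site was AGGCAAGCTT, 201 bases upstream. The Ccng1 half-site began 185 bases upstream. TGACGTCA, which binds factors of the CREB and ATF families, was present in 1.79% of all windows and, among these genes, only in Plk2. No window of Plk3, Gdf15 or Bbc3 held any of the 7 motifs, which says only that these letters are not in these windows. A match is a description of the letters and not a measured binding site. Only exact matches were counted, so a site that departs from its pattern in any base is left in lower case.

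Depth was even, with 22433625 to 25651874 counts per library. Lpcat3 itself was at 274 to 465 CPM (read counts per 1000000, scaled between libraries with TMM factors) in the Lpcat3 group and at 133 to 173 CPM in the eGFP group, as the labels require, though counts cannot separate vector transcripts from those of the mouse gene. Of 17438 genes tested, edgeR's quasi-likelihood test called 1, the noncoding RNA Egfros. Lpcat3 itself was not called (log2 fold change 1.25, edgeR adjusted p = 0.164), though its groups did not overlap. A gene that is not called may therefore still differ. The codes in the sample titles carry numbers whose meaning is not given. Codes 1290 and 1317 hold Lpcat3 replicate 1 and eGFP replicates 1 to 3. Codes 1344 and 1345 hold Lpcat3 replicates 2 to 4 and eGFP replicate 4. This joining of codes was made here and is not in the labels. Values within these code divisions are given beside the pooled ones. Within a division the difference is that of mean log2 CPM, while the pooled log2 fold change is edgeR's estimate. All 8 hepatocyte markers were detected in all libraries, with a summed level of 54658 to 84963 CPM in the Lpcat3 group and 42083 to 71961 CPM in the eGFP group. Their means were higher in the Lpcat3 group in 8 of 8 cases (median log2 fold change 0.22, 0 called), in 5 of 8 with library totals in place of TMM scaling, and in 4 of 8 without both libraries numbered 3.

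Plk3 was higher and Gdf15 and Bbc3 lower in every Lpcat3 liver than in any eGFP liver, and the other 7 genes overlapped between the groups. By their means, 2 of the 10 genes were higher in the Lpcat3 group and 8 were lower, with a median log2 fold change of -0.23. Over all genes tested the median was -0.01, and 51.5% were lower. None of the 10 genes was called (0 of 10, where edgeR called 0.00573% of all genes). At an unadjusted p of 0.05, 3 of the 10 were past the threshold and 8.48% of all genes were. The groups did not overlap for 3 of the 10 and for 4.16% of all genes, and since the choice of members used this comparison, nothing is read from these counts.

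**Figure D1:**
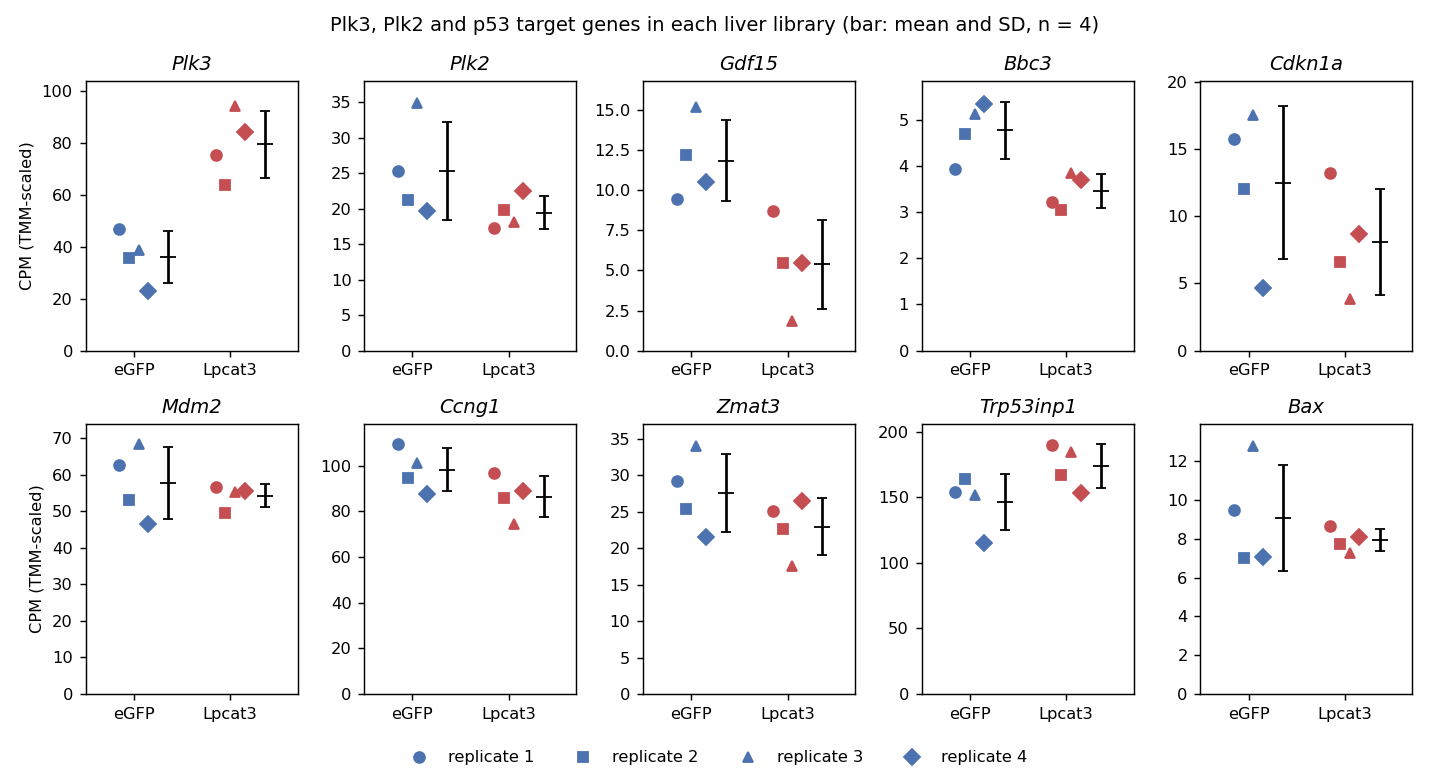
CPM of each gene (y axis, from 0, scaled by panel) in the 4 eGFP and 4 Lpcat3 libraries, with 1 symbol per replicate and a bar for the mean and SD. Plk3 lies at 64.0 to 94.5 CPM in the Lpcat3 group and 22.9 to 47.1 CPM in the eGFP group, while Cdkn1a spreads over overlapping ranges.

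Among the stress kinases, Plk3 stood at 75.3, 64.0, 94.5 and 84.3 CPM in Lpcat3 replicates 1 to 4. In eGFP replicates 1 to 4 it stood at 47.1, 35.7, 38.8 and 22.9 CPM. The lowest Lpcat3 library was thus above the highest eGFP library, eGFP replicate 1. The means were 79.5 ± 13.0 and 36.1 ± 10.04 CPM (SD, n = 4 each), a ratio of 2.2 and a log2 fold change of 1.14 (SE 0.20). Within codes 1290 and 1317 the log2 difference was 0.90, and within codes 1344 and 1345, where the 1 eGFP library is the lowest of all, it was 1.80. The gene Tctex1d4 overlaps Plk3 in the annotation, with 191 counts over all libraries against 10961 for Plk3.

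Plk2, the close relative of Plk3, had a lower mean in the Lpcat3 group. Its levels were 17.3, 19.8, 18.1 and 22.5 CPM in Lpcat3 replicates 1 to 4, and 25.4, 21.3, 35.0 and 19.7 CPM in eGFP replicates 1 to 4. The groups overlapped, and eGFP replicate 3 was the highest library. The means were 19.4 ± 2.3 and 25.3 ± 6.87 CPM (log2 fold change -0.38, SE 0.18), and without eGFP replicate 3 the log2 fold change was -0.19. The difference was -0.62 within codes 1290 and 1317 and 0.03 within codes 1344 and 1345. Whether the Plk2 and Plk3 differences themselves differ was not tested, because both were chosen with their values known.

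Of the death and stress signals among the targets, Gdf15 encodes a secreted factor of the TGF-beta superfamily that is released under cell stress and is also induced by the integrated stress response. It was at 8.69, 5.48, 1.87 and 5.45 CPM in Lpcat3 replicates 1 to 4 and at 9.43, 12.2, 15.2 and 10.5 CPM in eGFP replicates 1 to 4. The groups were separated by less than 1 CPM, between Lpcat3 replicate 1 and eGFP replicate 1, and Lpcat3 replicate 3 was far below the rest with 39 counts. The log2 fold change was -1.13 (SE 0.36), and -0.86 without that library. The difference in mean log2 CPM was -1.29 over all libraries, -0.47 within codes 1290 and 1317 and -1.44 within codes 1344 and 1345.

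Bbc3, the p53-induced initiator of mitochondrial apoptosis, was at 3.23, 3.05, 3.84 and 3.70 CPM in Lpcat3 replicates 1 to 4. In eGFP replicates 1 to 4 it was at 3.93, 4.70, 5.12 and 5.33 CPM. The highest Lpcat3 and the lowest eGFP library were nearly level, and each rests on 69 to 138 counts. The log2 fold change was -0.47 (SE 0.14), and the difference was -0.49 and -0.59 within the code divisions, so that the direction was shared. Bax, the pore-forming protein of the same family, was at 7.29 to 8.65 CPM in the Lpcat3 group and 7.03 to 12.8 CPM in the eGFP group. Its eGFP range was set by eGFP replicate 3, the next library being at 9.47 CPM, and without that replicate the log2 fold change went from -0.20 (SE 0.19) to 0.02.

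Cdkn1a had a wide spread in both groups. In Lpcat3 replicates 1 to 4 it was at 13.2, 6.58, 3.88 and 8.67 CPM, and in eGFP replicates 1 to 4 at 15.8, 12.0, 17.6 and 4.67 CPM. The lowest libraries were Lpcat3 replicate 3 and eGFP replicate 4, 1 of each group. The coefficient of variation was 48.7% in the Lpcat3 group and 45.7% in the eGFP group. The log2 fold change was -0.63 (SE 0.44), and on leaving out 1 library it ran from -0.96 (Lpcat3 replicate 1) to -0.40 (Lpcat3 replicate 3), with differences of -0.17 within codes 1290 and 1317 and 0.37 within codes 1344 and 1345, so the direction turned between them.

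The means of the other 4 targets lay closer together. Mdm2, the feedback inhibitor, was at 49.6 to 56.5 CPM in the Lpcat3 group and 46.5 to 68.5 CPM in the controls (log2 fold change -0.09, SE 0.12). Ccng1, a cyclin that acts in p53 feedback, was at 74.7 to 96.6 CPM against 87.5 to 109.7 CPM (-0.18, SE 0.10). Zmat3, an RNA-binding zinc finger protein, was at 17.6 to 26.5 CPM against 21.6 to 34.1 CPM (-0.26, SE 0.16). Trp53inp1, a nuclear and autophagy protein, was the only target with a higher mean, at 153 to 190 CPM against 116 to 164 CPM (0.25, SE 0.12, and 0.15 without eGFP replicate 4). Without eGFP replicate 3 the log2 fold change of Mdm2 was 0.00 and that of Zmat3 -0.15, and without Lpcat3 replicate 3 that of Ccng1 was -0.12. Ccng1 was lower and Trp53inp1 higher within both code divisions, whereas Mdm2 and Zmat3 were lower within codes 1290 and 1317 (-0.11 and -0.22) and higher within codes 1344 and 1345 (0.20 and 0.02).

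**Figure D2:**
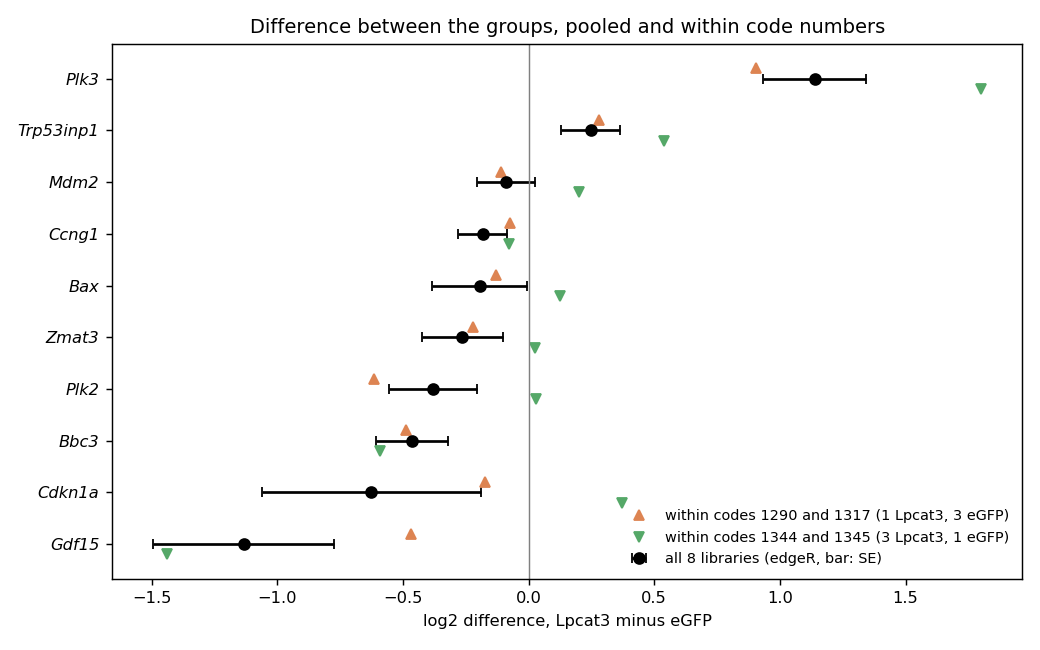
Log2 difference between the Lpcat3 and eGFP groups (x axis) for each gene (y axis). Circles are edgeR log2 fold changes from all 8 libraries with their SE. Triangles are differences of mean log2 CPM within each division of the title codes, without an error. Plk3, Trp53inp1, Ccng1, Bbc3 and Gdf15 lie on the same side of 0 in all cases, while Cdkn1a is at -0.17 in one division and 0.37 in the other.

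Per kilobase of exon, the scale on which genes can be compared, Ccng1 had the highest level in the eGFP group at 28.0 ± 2.7 CPM per kb (SD, n = 4), followed by Trp53inp1 at 22.6 ± 3.27, Plk3 at 14.3 ± 3.97 and Mdm2 at 11.4 ± 1.94. The ranges of Ccng1 and Trp53inp1 overlapped, as did those of Plk3 and Mdm2. The other 6 genes lay between 2.25 (Bbc3) and 6.39 (Gdf15) CPM per kb. In the Lpcat3 group Plk3 came first at 31.4 ± 5.14 CPM per kb, ahead of Trp53inp1 at 26.8 ± 2.58 and Ccng1 at 24.6 ± 2.59, with overlapping ranges. Exon lengths joined all annotated transcripts of a gene (11435 bases for Zmat3, 2531 for Plk3), so a level per kb is a lower estimate where the liver uses a short form.

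Within the groups, several targets followed each other from liver to liver. With each group's mean subtracted, which removes the group difference, 36 of the 45 pairs of the 10 genes had a positive Pearson r over the 8 libraries, with a median of 0.46. The highest were Cdkn1a with Ccng1 (0.91) and Cdkn1a with Zmat3 (0.90), and Mdm2 with Bax followed at 0.88. Plk3 went most with Mdm2 (0.81) and Trp53inp1 (0.68). The lowest value was that of Bbc3 with Ccng1 (-0.69). These r are a description: the points share their libraries and the scaling, and no p is given. The share of positive pairs and the median r were not computed over all genes. Nothing particular to the 10 genes is therefore read from them. All 10 genes were above the group mean in eGFP replicate 3, and 9 of 10 were below it in eGFP replicate 4, Bbc3 being the exception. eGFP replicate 3 held the highest eGFP value of 6 genes and eGFP replicate 4 the lowest of 7. Over all genes tested, these were also the least alike of the eGFP libraries (r of log2 CPM 0.974). The share of all genes above or below the group mean in them was not computed, so these counts may not be particular to the 10 genes.

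**Figure D3:**
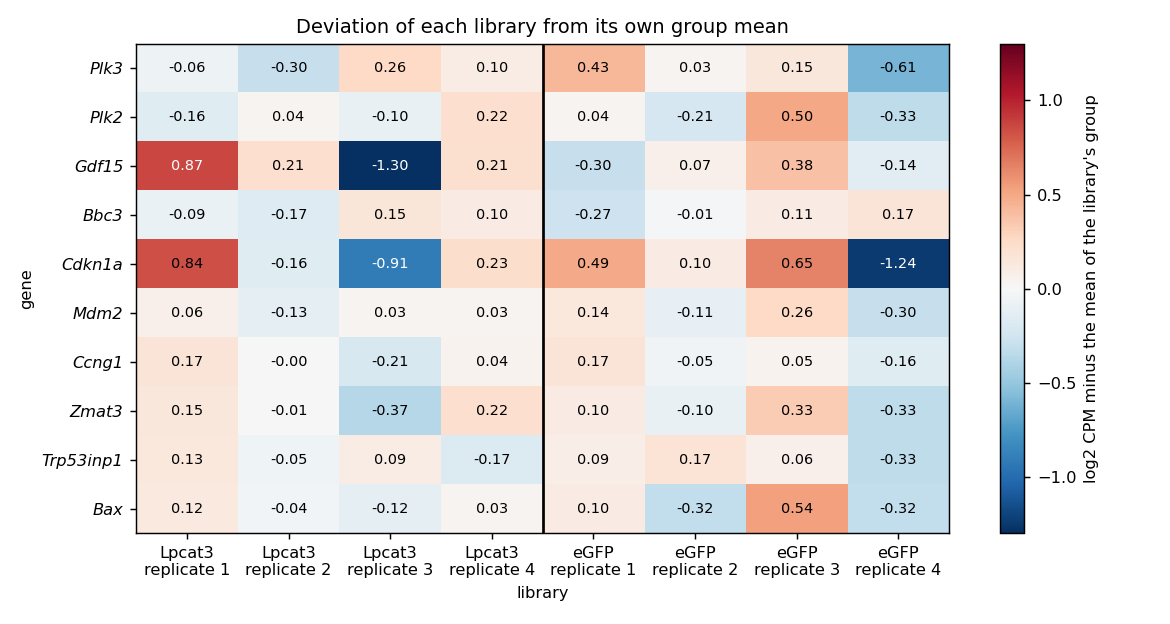
Log2 CPM of each gene (y axis) minus the mean of the library's own group, for the 8 libraries (x axis, Lpcat3 left of the line, eGFP right), with red above and blue below the mean. The column of eGFP replicate 3 is above 0 for all 10 genes, and Cdkn1a has the widest swing in the eGFP group, from -1.24 to 0.65.

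By the same measure, the genes most like Plk3 among 9870 compared were Ifrd2 (r = 0.96 over 8 libraries), Fam78a (0.94), Trim44 (0.93), Prkd2 (0.93) and Snx3 (0.92). The genes most like Cdkn1a were Cyth3, Erc2 and Serpinb6b (0.99, 0.99 and 0.98), and those most like Gdf15 were Sec22b, Tmed4 and Arf1 (0.96 each). The Cdkn1a neighbours kept a high likeness with the group difference left in (0.96 to 0.98), but those of Plk3 ranged from -0.32 to 0.58. These are the highest of many values over few libraries and carry no p.

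Other cell types also differed between the libraries. Of 15 macrophage and Kupffer cell markers, 14 had a lower mean in the Lpcat3 group, 0 were called, and none was at 0 in any library. Their summed level was 345 to 452 CPM in the Lpcat3 group and 466 to 729 CPM in the eGFP group. The highest sums were in eGFP replicates 1 and 3 (729 and 695 CPM), the libraries with the highest Cdkn1a. Lpcat3 replicate 1 was the highest of its group in both. In both groups replicate 4 broke this parallel, which was looked at after the values were seen. eGFP replicate 4 had a higher sum than eGFP replicate 2 (472 against 466 CPM) but a lower Cdkn1a (4.67 against 12.0 CPM). Lpcat3 replicate 4 had a lower sum than Lpcat3 replicate 2 (354 against 367 CPM) but a higher Cdkn1a (8.67 against 6.58 CPM). Endothelial markers were lower in 7 of 7 cases, with sums of 317 to 401 CPM against 400 to 435 CPM. Lymphocyte markers had lower means in 6 of 8 tested cases (sums of 4.69 to 6.76 against 4.62 to 10.02 CPM), stellate cell markers in 7 of 10 (476 to 784 against 639 to 774 CPM), and neutrophil markers in 4 of 4 (5.27 to 8.78 against 7.76 to 21.5 CPM), with Ly6g and Mpo at 0 in some libraries. The stellate cell direction rested on Lpcat3 replicate 3, without which 8 of 10 markers were higher (median 0.05), while with library totals all 10 were lower. Without eGFP replicate 3 the neutrophil median went from -0.81 to -0.18, and without both libraries numbered 3 these markers were split 2 to 2. Cholangiocyte markers were higher in 5 of 6 cases (39.6 to 128 against 38.2 to 86.5 CPM). The part of these cells in the values of the 10 genes was not tested, and in whole liver fewer cells of a type and less RNA per cell cannot be told apart.

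The rest of the p53 pathway was described from lists, with each gene tested in the fit over all genes. Over the 7 lists together, 169 of 179 genes were tested, 60 were higher, 109 were lower (64.5%, against 51.5% of all genes) and 0 were called by edgeR or by DESeq2. At an unadjusted p of 0.05, 26 were past the threshold (7 higher and 19 lower, where 3.3% of all genes were higher and 5.18% lower at that threshold). The groups did not overlap for 4 list genes that were higher and 9 that were lower, and for 4.16% of all genes. Most genes named below were picked by their small p, so nothing is read from their separation. Values below are mean CPM ± SD over 4 libraries, Lpcat3 group first. None of the genes named passed the test (edgeR adjusted p of at least 0.564).

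Among 37 other p53 targets, 14 were higher and 23 lower, with a median log2 fold change of -0.07, and 0 were called. Ercc5, an endonuclease of nucleotide excision repair, was at 21.8 ± 1.53 against 18.5 ± 0.80 CPM, with the 2 groups apart. Pmaip1 (Noxa), a death-promoting protein like Bbc3, was at 1.6 ± 0.49 against 2.66 ± 0.70 CPM, also without overlap. Trp53i11 was at 8.15 ± 1.19 against 10.7 ± 1.88 CPM and Rap2b, a small GTPase, at 5.9 ± 1.2 against 8.97 ± 2.96 CPM. Without eGFP replicate 3 the list was split 18 higher to 19 lower. With library totals in place of TMM scaling it was 7 higher to 30 lower, a scaling that lowered the median of all genes from -0.01 to -0.13.

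The p53 family and its regulators were evenly split, 12 higher and 12 lower of 24 tested, with a median of 0.00 and 0 called, but 1 higher and 23 lower with library totals. Trp53, which encodes p53, was at 16.4 ± 1.27 against 18.3 ± 3.18 CPM, named after its values were seen. Kat5, an acetyltransferase that acts on p53 and ATM, was at 9.64 ± 0.66 against 11.5 ± 0.85 CPM, and Pml, the organizer of nuclear bodies, at 28.0 ± 2.12 against 31.6 ± 1.38 CPM. Daxx was at 8.61 ± 1.28 against 10.4 ± 1.05 CPM and Trp53rka, a kinase, at 2.55 ± 0.47 against 3.6 ± 1.07 CPM.

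Of 24 BCL2 family and apoptosis genes, 10 were higher and 14 lower (median -0.07, 0 called), with a split of 12 to 12 without eGFP replicate 3 and of 3 to 21 with library totals. Apaf1, the scaffold of the apoptosome, was at 11.2 ± 1.57 against 15.3 ± 2.94 CPM. Bcl2l1, which encodes the protective protein BCL-XL, was at 29.4 ± 1.34 against 38.5 ± 9.33 CPM without overlap. Mcl1, another protective member, was at 99.2 ± 4.88 against 112 ± 13.2 CPM. Bnip3, a mitophagy receptor, was at 230 ± 24.3 against 187 ± 46.1 CPM. Death-promoting and protective members were both among those with lower means.

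The list of cell cycle inhibitors and G1 cyclins was lower in 14 of 21 cases (median -0.06, 0 called), and in 17 with library totals. It also holds cyclin-dependent kinases, members of the retinoblastoma and E2F families, Ccna2, Ccng2, Mki67 and Top2a, so the count is not that of inhibitors alone. The direction turned without eGFP replicate 1 (11 higher, 10 lower, median 0.01), and the list was split 10 to 11 without Lpcat3 replicate 3 or without eGFP replicate 3. Rbl1, a relative of the retinoblastoma protein, was at 5.9 ± 0.89 against 7.52 ± 0.59 CPM without overlap. The proliferation marker Mki67 was at 15.9 ± 5.39 against 21.4 ± 7.46 CPM. E2f2 was at 1.87 ± 0.78 against 2.61 ± 0.75 CPM and Ccng2 at 11.7 ± 1.75 against 14.0 ± 3.49 CPM. Of the other polo-like kinases and their mitotic partners, 10 of 11 were lower (median -0.33, 0 called), 8 of 11 once the code division entered the fit. The median was -0.12 without eGFP replicate 1 and -0.15 without Lpcat3 replicate 3. Bub1b, a spindle checkpoint kinase, was at 1.75 ± 0.16 against 2.7 ± 0.50 CPM and Plk5 at 1.05 ± 0.09 against 1.4 ± 0.14 CPM, both without overlap. Aurka, the mitotic kinase that activates Plk1, was at 3.63 ± 0.31 against 3.05 ± 0.39 CPM and Cdk1 at 2.13 ± 0.52 against 2.41 ± 0.26 CPM. Plk1, which drives entry into mitosis, was at 0.69 ± 0.10 against 0.83 ± 0.24 CPM and Plk4, which starts centriole duplication, at 3.34 ± 0.42 against 3.51 ± 0.61 CPM, both named after their values were seen. The mean of Plk3 was thus higher in the Lpcat3 group and those of Plk1, Plk2, Plk4 and Plk5 lower, and none of the 5 was called by edgeR.

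Immediate-early and stress-induced genes, the class in which Plk2 and Plk3 were first described, were lower in 25 of 34 cases (median -0.27, 0 called), with a median of -0.08 without eGFP replicate 3. Dusp6, a phosphatase induced by ERK signalling, was at 44.1 ± 6.61 against 59.3 ± 7.64 CPM, and Gadd45a, a p53 target that responds to DNA damage, at 2.04 ± 0.92 against 4.51 ± 1.6 CPM without overlap. In the other direction, Gadd45g was at 3.57 ± 1.25 against 1.46 ± 0.62 CPM and the clock gene Per1 at 64.9 ± 21.3 against 35.7 ± 10.09 CPM. Egr1 (-0.80), Junb (-0.59) and Fos (-0.62) had negative log2 fold changes, and Tsc22d3 (0.92) and Sik1 (0.84) positive ones, all named after their values were seen. Without both libraries numbered 3 the list was split 19 higher to 15 lower, with a median of 0.02, so its direction turned.

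Genes of the integrated stress response, the other known route to Gdf15, were lower in 12 of 19 cases (median -0.09, 0 called), and in 14 with library totals. The direction turned without eGFP replicate 3 (10 higher, 9 lower, median 0.08). It also turned with the code division as a term (11 to 8, median 0.04) and without both libraries numbered 3 (13 to 6, median 0.10). Atf4, its central factor, was at 49.1 ± 2.6 against 48.6 ± 5.01 CPM, named after its values were seen. Fgf21, a hormone secreted by the stressed liver, was at 6.13 ± 2.99 against 11.9 ± 7.39 CPM, with its highest value, 22.5 CPM, in eGFP replicate 3, which was also highest for Gdf15. Its lowest value, 2.06 CPM, was in Lpcat3 replicate 3, which was lowest for Gdf15. Over all genes tested, eGFP replicate 3 and Lpcat3 replicate 3 were also the least alike pair of libraries (r of log2 CPM 0.958). In eGFP replicate 4 Fgf21 was the lowest of its group at 5.49 CPM. Gdf15 was at 10.5 CPM there and lower in eGFP replicate 1 (9.43 CPM). A link between Fgf21 and Gdf15 was not tested. Cebpb was at 63.6 ± 9.21 against 48.6 ± 3.29 CPM without overlap, Ddit4 at 4.2 ± 1.57 against 2.77 ± 1.17 CPM and Shmt2, a mitochondrial serine enzyme, at 134 ± 15.8 against 117 ± 20.3 CPM.

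**Figure D4:**
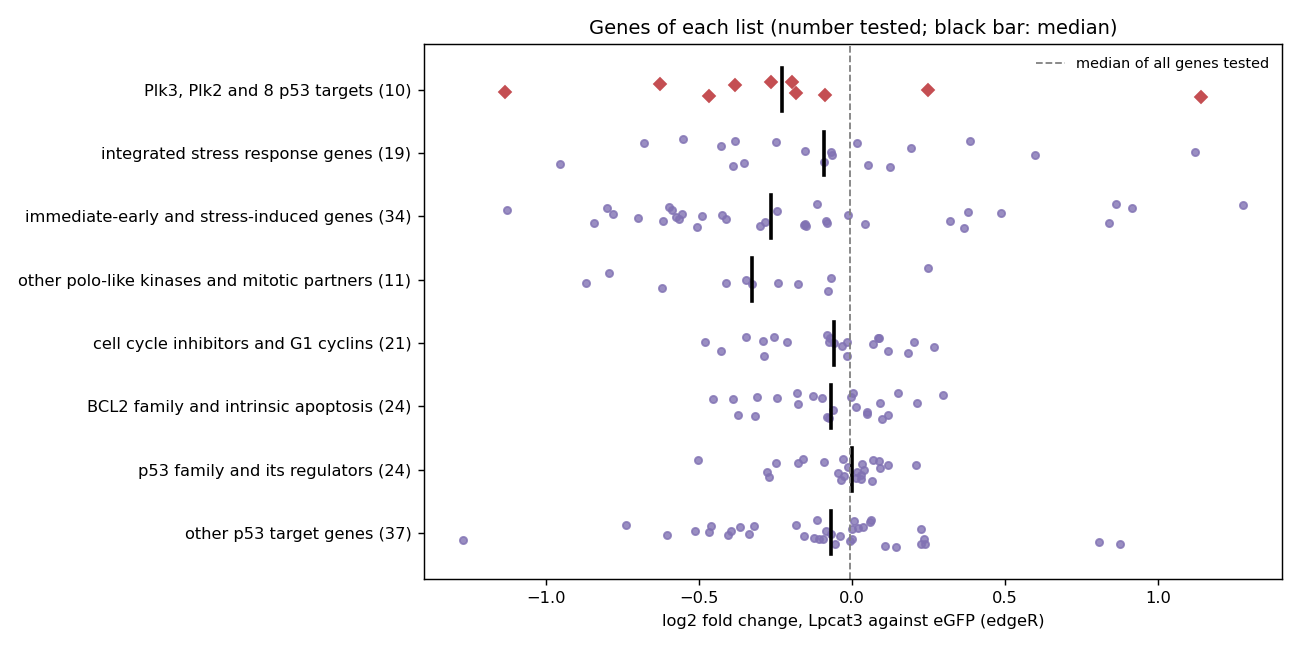
Log2 fold change between the Lpcat3 and eGFP groups (x axis) of every tested gene of each list (y axis, number tested in brackets), with a black bar for the list's median and a dashed line for the median of all genes. The lists have medians from -0.33 to 0.00, and the 10 genes described first lie between -1.13 (Gdf15) and 1.14 (Plk3).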

How the data were processed

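RNA of 8 livers was measured, 4 per group. The authors deposited 1 table of unnormalized read counts with 40838 rows, named by NCBI gene numbers per the file headers. The submitters' processing notes name bcl2fastq 2.20, DESeq2 and the genome build GRCm39. No aligner, counting program or strand setting is named, so reads of overlapping genes cannot be told apart. The bracketed codes in the titles tied each column to its sample (0 columns were left over). Symbols came from a RefSeq table of GRCm38, matching 39397 rows.

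Genes were filtered with filterByExpr (minimum count 10), leaving 17438, and compared with edgeR 4.0.16 (R 4.3.3; quasi-likelihood test, robust, TMM scaling, only group as a term). P-values were adjusted by Benjamini-Hochberg over all 17438 genes and called at 0.05. CPM were computed here with TMM-scaled totals, and log2 CPM used a prior count of 2. The steps were tested on simulated data. The biological coefficient of variation was 16.9%. Alternatives were other scalings and filters, DESeq2 1.42.0, limma-voom (limma 3.58.1), leaving out each library, and a replicate block. The division of the joined codes was also used as a term.

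The genes described and the 7 pathway lists were chosen with earlier results of these data known. From each list, up to 4 genes with the smallest unadjusted edgeR p at a mean of at least 1 CPM were named. Genes like Plk3 (5), Gdf15 and Cdkn1a (3 each) were those with the highest Pearson r of group-centred log2 CPM, among genes with an established symbol, a mean of at least 5 CPM and no 0. Genes named otherwise, Lpcat3 and called genes aside, were chosen after their values were seen. Promoter windows came from RefSeq (GRCm38.p6). Exon lengths came from GENCODE M21.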

Additional observations from a re-analysis of the deposited data

Results flagged for a closer look

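Dixon's test, applied to 94 sets of 4 libraries of 1 group, marked 2 sets in which 1 library lay far from the other 3, and chance alone marks about 1 in 20. Bcl2l1 was at 52.4 CPM in eGFP replicate 3, where the other eGFP libraries were at 32.9 to 35.3 CPM. Ddit4, a stress-induced inhibitor of mTOR signalling, was at 1.87 CPM in Lpcat3 replicate 4, where the other Lpcat3 libraries were at 4.73 to 5.27 CPM. None of the 10 genes described first was marked in either group.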

How the results depend on the processing

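edgeR called 1 gene across all genes. The count was 3 with library totals, 0 without a filter on low counts, 54 with DESeq2 (28 higher, 26 lower), 0 to 7 on leaving out 1 library, 0 with the replicate number as a block, 0 with the code numbers as a term, and 0 without both libraries numbered 3, an alternative chosen after seeing the data. With DESeq2, 1 of the 10 genes was called, Plk3 (adjusted p = 0.000104, where the edgeR and limma settings gave 0.28 to 0.928); in all other settings 0 were. Genes of the 7 lists were called in none of the 17 settings (0 each). All 170 log2 fold changes of the 10 genes under these settings lay within 1 SD of their main value. Here SD is the spread of a gene's log2 CPM between libraries, not the error of its fold change. Cdkn1a stayed within this wide limit while going from -0.63 (SE 0.44) to 0.10 once the code numbers entered the fit. Lying within it therefore does not show that an estimate is stable. Of the 170 values, 5 turned in sign. Mdm2 and Bax did so without eGFP replicate 3, and Cdkn1a and Mdm2 with the code numbers as a term. Bax also did so without both libraries numbered 3. Plk3 ranged from 0.97 to 1.35, Gdf15 from -1.46 to -0.71 and Bbc3 from -0.58 to -0.41. The labels do not say whether the replicate numbers pair the samples. Deviations of same-numbered libraries correlated at 0.35, -0.10, -0.46 and -0.16. This cannot decide the question, since those of differently numbered libraries ran from -0.53 to 0.53. Depth limits Bbc3 and Gdf15 most, with as few as 69 and 39 counts in a library.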
